A study of Mus musculus with 9 samples.

Results

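The genes described here encode the myocyte enhancer factors 2 (Mef2a, Mef2c and Mef2d) and the class IIa histone deacetylases (Hdac4, Hdac5, Hdac7 and Hdac9), 7 of the 24011 genes with a symbol on the arrays. They were chosen by gene symbol, with 1 probe set per gene. All 7 were above the filter on dim signals and were among the 17142 genes tested. MEF2 proteins are transcription factors that bind DNA as dimers and, together with the MyoD family, switch on muscle genes as myoblasts differentiate. Class IIa deacetylases bind MEF2 proteins on DNA and keep their target genes silent, largely by bringing in corepressor complexes. When kinases phosphorylate these deacetylases, 14-3-3 proteins hold them in the cytoplasm and MEF2 is released.

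Transcripts were measured in mouse primary myoblasts, the dividing progeny of the stem cells of skeletal muscle, on 9 arrays in 3 groups of 3. The cells had been grown with 20% fetal serum and 2.5 ng/ul basic FGF and were then kept in 2% horse serum, a low-serum medium in which myoblasts differentiate, and RNA was taken at 24 h. The control group was mock-treated, the BMP4 group received recombinant BMP4 protein at 100 ng/ml and the GREM1 group received recombinant GREM1 protein at 500 ng/ml. BMP4 is a growth factor that signals through SMAD proteins, and GREM1 (gremlin) captures BMPs outside the cell and blocks them. The labels name no genotype, strain, age or sex and leave unsaid whether replicates came from separate cultures, and the p-values then reflect only the spread among these arrays, which may be technical. In bulk RNA, fewer cells of a type and less RNA per cell cannot be told apart, and the arrays report transcripts, not where a protein sits in the cell.

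Values are log2 expression, differences are log2 differences with the standard error (SE) of limma's fit to all 9 arrays, and a gene is said to have risen or fallen only at a Benjamini-Hochberg adjusted p under 0.05 over all tested genes. Array medians lay between 5.00 and 5.12. All 9 myogenic markers looked for passed the filter, and the mean of these markers lay between 8.75 and 9.15 on the control arrays, 9.09 and 9.17 with BMP4 and 9.20 and 9.43 with GREM1. Of the markers of other cell types, 4 of 8 for fibroblasts, 4 of 7 for endothelium, 4 of 6 for leukocytes and 5 of 7 for mural and Schwann cells passed it. Among those that passed were Col3a1, Thy1 and Pi16 of fibroblasts, with control means of 7.4, 5.6 and 4.0. Pecam1, Cdh5, Tie1 and Vwf of endothelium (4.6, 3.9, 3.9 and 5.0) also passed. So did Cd68, Csf1r, Itgam and Cd14 of leukocytes (6.5, 4.1, 4.4 and 4.7). Pdgfra, Dcn and Lum, Kdr, Tek and Emcn, and Ptprc and Adgre1 did not pass. The first control array stood apart on the second principal component, at 31.6 with the other arrays between -16.5 and 6.12, and the differences of the members from control are therefore also given without it.

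The promoters of Mef2a and Mef2d are shown because these were the members that rose with GREM1, and that of Hdac5 because it and Mef2a held the same motif. Each line holds 250 bases before the annotated gene start and the first 10 bases of the gene, 5′ to 3′ on the gene's strand, from RefSeq on build GRCm38.p6, with a match to the MEF2 consensus in capitals. The Mef2a stretch is chr7:67372849-67373108 on the minus strand, the Mef2d stretch is chr3:88142122-88142381 on the plus strand and the Hdac5 stretch is chr11:102230163-102230422 on the minus strand.
Mef2a: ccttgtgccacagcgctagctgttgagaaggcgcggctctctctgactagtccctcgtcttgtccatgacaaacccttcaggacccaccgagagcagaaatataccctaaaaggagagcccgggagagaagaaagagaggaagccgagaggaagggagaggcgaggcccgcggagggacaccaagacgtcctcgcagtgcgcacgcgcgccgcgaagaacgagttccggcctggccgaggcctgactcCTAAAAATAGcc
Mef2d: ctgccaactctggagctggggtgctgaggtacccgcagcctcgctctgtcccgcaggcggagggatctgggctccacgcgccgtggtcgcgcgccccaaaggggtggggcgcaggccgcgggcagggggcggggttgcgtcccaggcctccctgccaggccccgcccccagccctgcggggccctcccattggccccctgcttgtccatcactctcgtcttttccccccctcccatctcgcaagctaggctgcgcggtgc
Hdac5: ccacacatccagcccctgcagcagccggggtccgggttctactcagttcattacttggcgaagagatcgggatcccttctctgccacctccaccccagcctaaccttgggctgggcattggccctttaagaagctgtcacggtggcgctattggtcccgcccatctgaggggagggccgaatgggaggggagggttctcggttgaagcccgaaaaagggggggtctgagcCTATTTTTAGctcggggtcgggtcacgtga
In Mef2a the match ran from base -2 to base 8 and in Hdac5 from base -20 to base -11, with the first base of the gene as 1 and no base 0. These 2 were the only matches among 13 promoter windows of the 7 members, searched on both strands over 250 bases before and 50 from each start, and 3.19% of all 32851 such windows held the motif. The E-box CANNTG, the motif of MyoD family factors, was in 7 of the 13 windows, against 72.3% of all windows. GGCGCC, a GC-rich element described for BMP SMADs, was in 1 window, that of Hdac4, with 2 matches, against 11.9% of all. The CArG box, bound by SRF, was in 0 of the 13 windows, against 1.63% of all. The Mef2d window held none of the 4 motifs, which says only that these letters were not in this stretch.

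With GREM1, Mef2a and Mef2d rose to 1.82-fold and 1.84-fold the control level, while Mef2c and the 4 deacetylases did not pass the test. The comparison asks what changes when the BMP antagonist is added to differentiating myoblasts. The 2 called members are read against 734 of 17142 tested genes called, or 4.28%, with 355 higher and 379 lower. The groups did not overlap for 4 members, Mef2a, Mef2d, Hdac5 and Hdac9, against 24.0% of all tested genes. The median difference of the members was 0.30 and that of all tested genes -0.0057. With the replicate number as a block the same comparison called 1985 genes and the same 2 members, and with arrays centred on their medians the split of all calls was 391 higher to 271 lower.

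Mef2a, which encodes a MEF2 factor present in many tissues besides muscle, read 9.84, 10.05 and 10.05 on the control arrays. It read 10.04, 9.95 and 9.91 with BMP4. It read 10.76, 10.67 and 11.10 with GREM1. Every GREM1 array lay above every other array, while control and BMP4 arrays overlapped. The rise was 0.87 ± 0.12 (SE, n = 3 and 3), or 1.82-fold, with a 95% interval of 0.60 to 1.14 and a limma adjusted p of 0.00602. It was 0.80, with an adjusted p of 0.0244, without the first control array. Of the tested genes, 1.46% differed by at least as much in either direction. The call was lost only where all 3 arrays of replicate number 1 or of number 2 were left out (adjusted p of 0.137 and 0.109), which leaves 2 arrays a group.

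Mef2d, which encodes a MEF2 factor with a muscle-specific splice form, read 9.60, 9.51 and 9.12 on the control arrays. It read 9.37, 9.35 and 8.93 with BMP4. It read 10.36, 10.41 and 10.09 with GREM1. The third array was the lowest of its group in each condition, and all GREM1 arrays were above all others. The rise was 0.88 ± 0.16 (SE, n = 3 and 3), or 1.84-fold, with a 95% interval of 0.51 to 1.24 and a limma adjusted p of 0.0199. It was 0.97, with an adjusted p of 0.0382, without the first control array. The call was lost without the third control array (0.73, adjusted p of 0.0614), the first GREM1 array (0.84, 0.0819) or the second GREM1 array (0.82, 0.0848), and also without all arrays of number 1 (0.93, 0.191) or of number 2 (0.86, 0.219).

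Mef2c, which encodes a MEF2 factor of developing and mature muscle, read 10.65, 10.71 and 9.67 on the control arrays. It read 10.78, 10.81 and 9.83 with BMP4. It read 10.81, 10.72 and 10.41 with GREM1. Again the third array was the lowest of each group, by about a log2 unit in the control and BMP4 groups, and all 3 groups overlapped. The difference of GREM1 from control was 0.30 ± 0.32 (SE), with a 95% interval of -0.41 to 1.02 and a limma adjusted p of 0.660. That interval, which holds for the fit without the replicate block only, includes the rises of Mef2a and Mef2d. With the replicate block the same difference had an SE of 0.14 and an adjusted p of 0.215. The difference was 0.16 between the arrays numbered 1, 0.011 between those numbered 2 and 0.74 between those numbered 3. It was -0.033 without the third control array and 0.46, with an adjusted p of 0.578, without the first. The remaining family gene, Mef2b, had group means of 4.07, 3.98 and 4.11, just above the filter level of 3.89 to 4.02, and differed by 0.036 with GREM1 (adjusted p of 0.886).

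**Figure D1:**
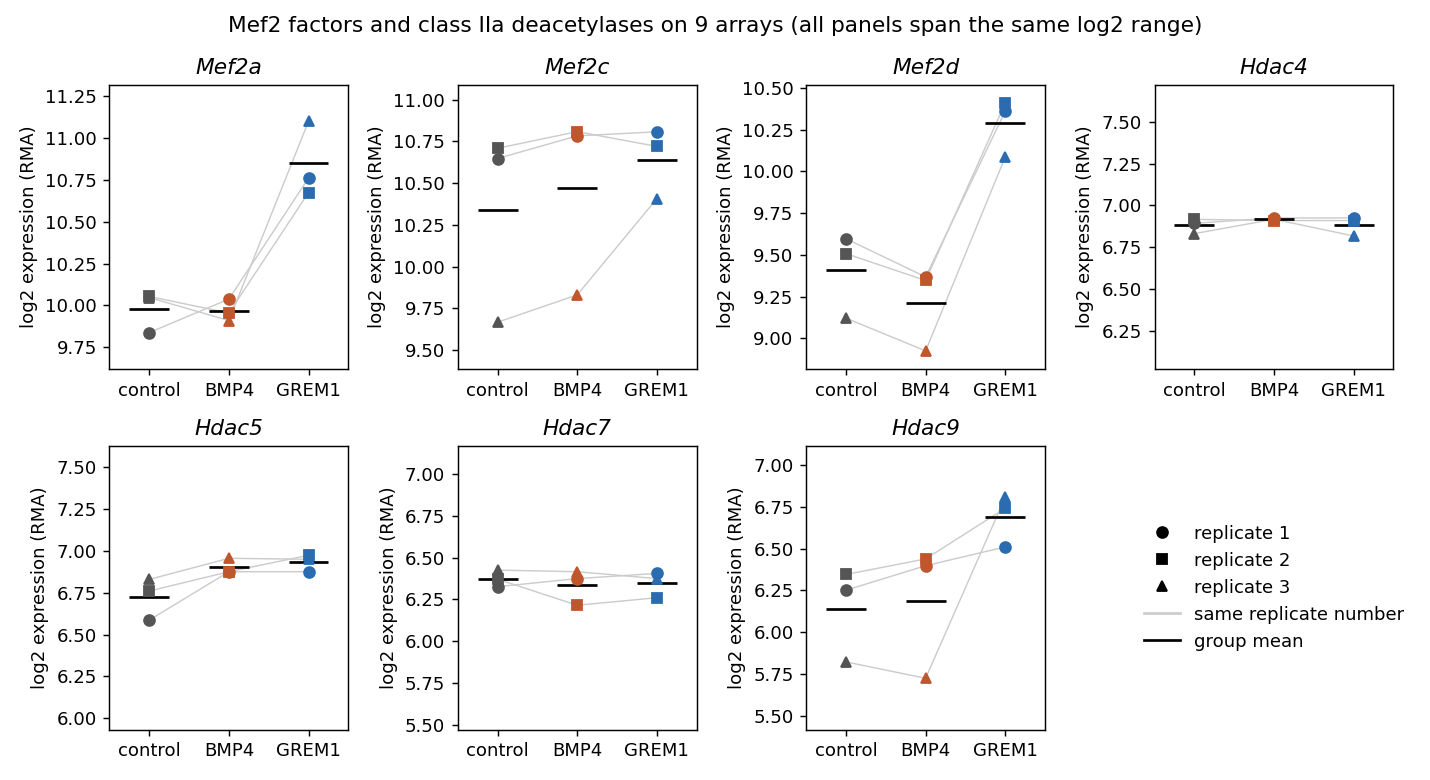
Log2 expression of the 7 genes on each of the 9 arrays, by group, with the group mean as a bar, marker shape for the replicate number and lines joining arrays of one number. All panels have the same span in log2 units. The GREM1 arrays of Mef2a and Mef2d sit above all other arrays, and the third control and BMP4 arrays of Mef2c, Mef2d and Hdac9 sit lowest.

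Of the 4 deacetylase genes, Hdac9 and Hdac5 had GREM1 arrays that did not overlap the controls but did not pass the test over all genes, and Hdac4 and Hdac7 lay close to the control level. Hdac9, a gene that also makes a short form without the catalytic domain and has been described as a MEF2 target itself, read 6.25, 6.35 and 5.82 on the control arrays. It read 6.40, 6.44 and 5.72 with BMP4. It read 6.51, 6.74 and 6.81 with GREM1. All GREM1 arrays were above all others, and the third array was lowest in the control and BMP4 groups but highest in the GREM1 group. The difference of GREM1 from control was 0.55 ± 0.20 (SE), or 1.46-fold, with a 95% interval of 0.091 to 1.00, an unadjusted p of 0.0238 and a limma adjusted p of 0.170. By replicate number it was 0.26, 0.40 and 0.99. Without the third control array it was 0.39, with an adjusted p of 0.364, and without the first 0.60, with 0.235.

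Hdac5, a deacetylase whose export from the nucleus accompanies myoblast differentiation, read 6.59, 6.76 and 6.83 on the control arrays. It read 6.88, 6.88 and 6.96 with BMP4. It read 6.88, 6.97 and 6.95 with GREM1. Both treated groups lay above the controls and overlapped each other, and the first control array was the lowest. The difference of GREM1 from control was 0.21 ± 0.085 (SE), with a 95% interval of 0.017 to 0.40, an unadjusted p of 0.0357 and a limma adjusted p of 0.209. It was 0.14, with an adjusted p of 0.408, without the first control array.

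Hdac4, which represses MEF2 in muscle and responds to nerve supply, read 6.89, 6.92 and 6.83 on the control arrays. It read 6.92, 6.91 and 6.92 with BMP4, and 6.93, 6.91 and 6.82 with GREM1. The groups overlapped throughout. The difference of GREM1 from control was 0.0038, with a 95% interval of -0.16 to 0.16 and a limma adjusted p of 0.987, so the interval leaves out a change the size of that of Mef2a or Mef2d. Hdac7, best known from vessels and thymocytes and also present in myoblasts, read 6.33, 6.37 and 6.43 on the control arrays. It read 6.37, 6.22 and 6.42 with BMP4, and 6.41, 6.26 and 6.37 with GREM1. These groups overlapped too, and the difference of GREM1 from control was -0.027, with a 95% interval of -0.22 to 0.16 and a limma adjusted p of 0.896. Without the first control array the differences were 0.010 for Hdac4 and -0.051 for Hdac7.

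**Figure D2:**
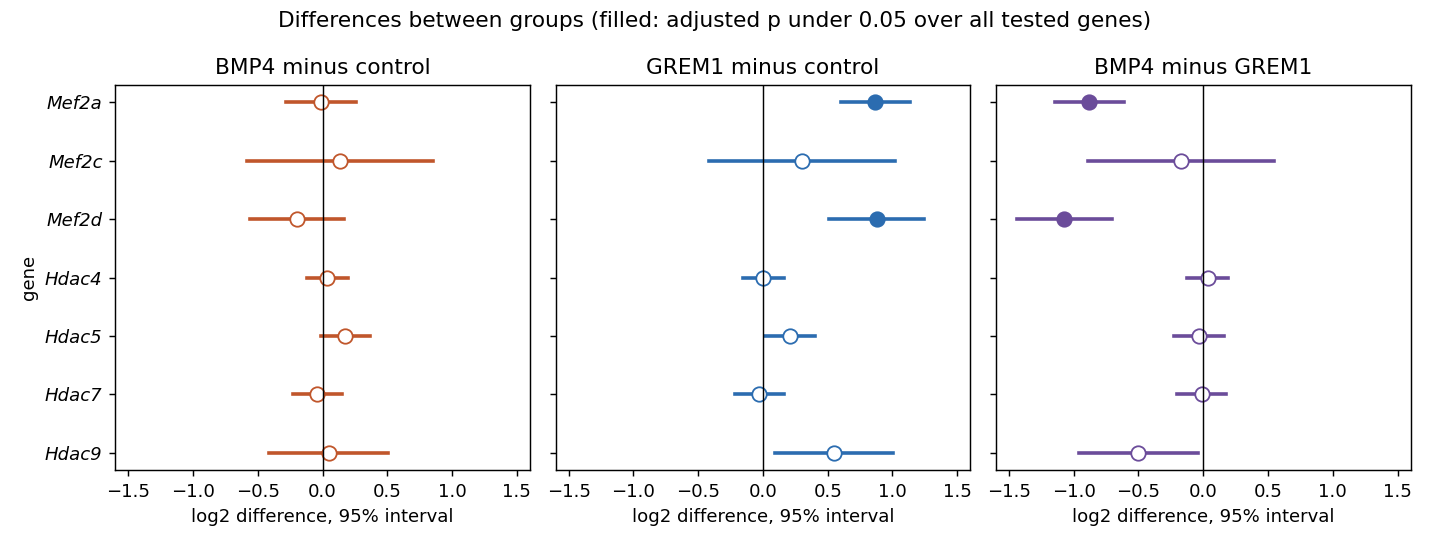
Log2 differences of the 7 genes in the 3 comparisons, as points with the 95% interval of limma's fit. Filled points mark an adjusted p under 0.05 over all tested genes. They are Mef2a and Mef2d with GREM1 against control (0.87 and 0.88) and with BMP4 against GREM1 (-0.88 and -1.07).

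Since a level cannot be set against that of another probe set, unequal change was described by log2 ratios of one member to another within each array. Of 15 ratios, 7 were higher on every GREM1 array than on any control array and none was lower. They were Mef2d to Mef2c (0.57 ± 0.20 SE) and both Mef2a and Mef2d to Hdac4, Hdac5 and Hdac7 (0.66 to 0.90). All 7 set Mef2a or Mef2d against another member and so restate the rises of these 2 genes. Mef2a to Mef2c changed by about as much as Mef2d to Mef2c, by 0.56 ± 0.45 (SE), but with overlapping groups. Mef2a to Mef2d changed by -0.0097 ± 0.30, with overlapping groups, so these ratios did not set the rises of these genes apart. The ratios of Mef2a and Mef2d to Hdac9 were higher by 0.32 and 0.33, with overlapping groups. Each exact permutation test of 3 against 3 arrays, two-sided, is limited to p = 0.1, and the smallest Benjamini-Hochberg value over the 45 ratios and comparisons was 0.281.

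With BMP4 none of the 7 genes passed the test against control. The comparison asks what added BMP signal changes in the same medium, and it called 20 of 17142 genes, or 0.117%. The count of members at an unadjusted p under 0.05 was also 0. For 1 member, Hdac5, the groups did not overlap, against 11.2% of all tested genes. The median difference of the members was 0.037 and that of all tested genes -0.0060. With the replicate number as a block 65 genes were called, and again 0 of the members. Of the 15 ratios, 1 was lower on every BMP4 array than on any control array. It was Mef2a to Hdac5 (-0.19 ± 0.065 SE), at the limit of p = 0.1 of the exact permutation test.

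The BMP4 differences were -0.012 ± 0.12 (SE) for Mef2a, 0.13 ± 0.32 for Mef2c and -0.20 ± 0.16 for Mef2d, with limma adjusted p of 0.984, 0.932 and 0.783. Mef2d was lower with BMP4 than with control at each replicate number, by -0.23, -0.16 and -0.20, yet the groups overlapped. Mef2c was higher at each number, by 0.14, 0.099 and 0.16. Neither passed the test with the replicate block, where Mef2d had an adjusted p of 0.329. Hdac5 differed by 0.18 ± 0.085, with an unadjusted p of 0.0655 and an adjusted p of 0.646. Hdac4, Hdac7 and Hdac9 differed by 0.037, -0.039 and 0.047. The 95% intervals of these differences ended at -0.12 and 0.20 for Hdac4 and at -0.23 and 0.15 for Hdac7. Without the first control array the differences were -0.083 for Mef2a, 0.29 for Mef2c, -0.10 for Mef2d, 0.043 for Hdac4, 0.11 for Hdac5, -0.063 for Hdac7 and 0.10 for Hdac9, and again 0 of the members passed the test.

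**Figure D3:**
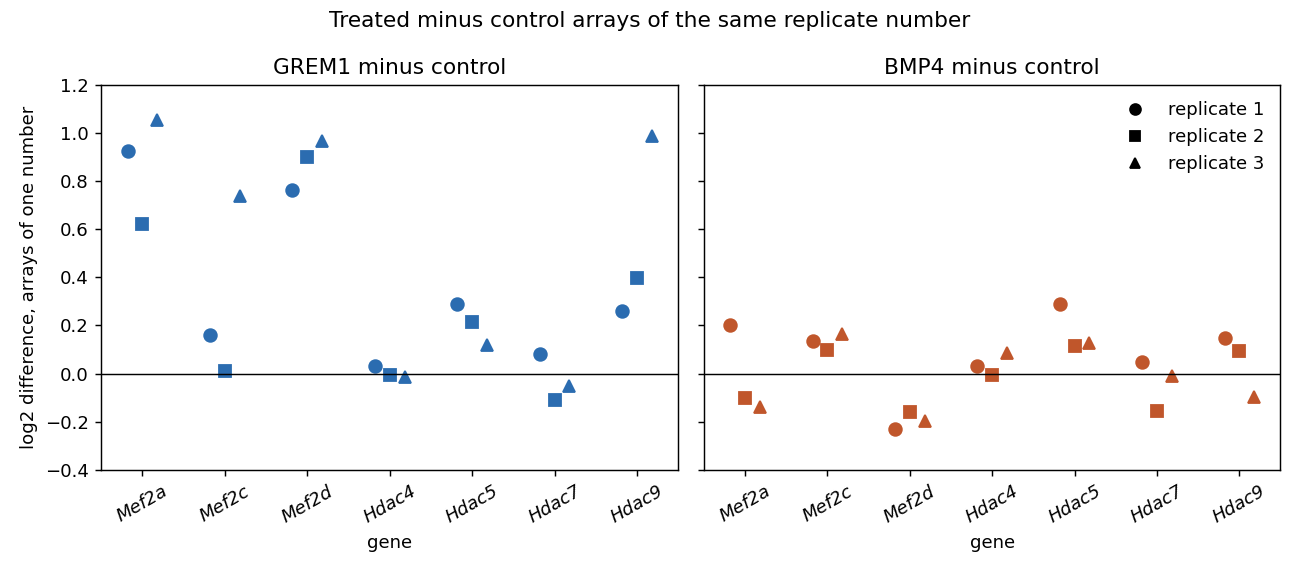
Log2 differences between treated and control arrays of the same replicate number for the 7 genes, with marker shape for the number. With GREM1, Mef2a, Mef2c, Mef2d, Hdac5 and Hdac9 lie above 0 at all 3 numbers, and Mef2c and Hdac9 are highest at number 3 (0.74 and 0.99). With BMP4, Mef2c and Hdac5 lie above 0 and Mef2d below 0 at all 3 numbers (-0.16 to -0.23 for Mef2d).

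Set directly against each other, BMP4 and GREM1 cells differed in the same 2 members. The 2 members are read against 1105 of 17142 genes called, or 6.45%, and the groups did not overlap for 3 members, against 24.5% of all. This comparison shares its arrays with the previous ones and adds no independent samples. Mef2a was lower with BMP4 by -0.88 ± 0.12 (SE), with a limma adjusted p of 0.00236, and Mef2d by -1.07 ± 0.16, with an adjusted p of 0.00444. Both calls held without any 1 array and were lost without all arrays of number 1 (adjusted p of 0.0504 and 0.0826) or of number 2 (0.0720 and 0.128). Hdac9 differed by -0.50 ± 0.20, with an unadjusted p of 0.0350 and an adjusted p of 0.210. Mef2c differed by -0.17 (adjusted p of 0.842), and Hdac4, Hdac5 and Hdac7 by 0.033, -0.031 and -0.012. The median of the members was -0.17 and that of all tested genes -2.33e-05. Of the 15 ratios, 8 were lower on every BMP4 array than on any GREM1 array, including Mef2d to Hdac9 (-0.57), each at the limit of p = 0.1 of the exact permutation test. All 8 set Mef2a or Mef2d against another member and so restate the differences of these 2 genes.

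Within groups, the array-to-array spread tied some members together. After group means were taken out, Mef2c and Mef2d had a Pearson r of 0.96 over the 9 arrays, Mef2c and Hdac9 of 0.84 and Mef2d and Hdac9 of 0.74. Hdac5 and Hdac7 went the other way, at -0.68 and -0.57 with Mef2c and at -0.69 and -0.62 with Mef2d. Mef2a had -0.44 with Mef2d, -0.21 with Mef2c and 0.19 with Hdac9. These are descriptions over 9 arrays that share 3 replicate numbers. Patterns over all 9 values were then searched among tested genes other than members, predicted genes, clones and pseudogenes. In this search the pattern most like that of Mef2a was that of Rhob, a small GTPase (r = 0.986), followed by Tspan9, a tetraspanin (0.976), and Cdkn1c, the cell cycle inhibitor p57 (0.974). The patterns most like that of Mef2d were those of the kinase Dyrk1b (0.994), the translation factor Ctif (0.992) and the LIM protein Pdlim4 (0.989). The GREM1 differences of these 6 genes were 0.39, 0.76 and 2.00 for the first set and 0.57, 0.77 and 0.67 for the second. The genes were picked by likeness over the same arrays, so the direction of these differences follows from the choice. After group means were taken out, r was 0.82, 0.84 and 0.73 for the first set and 0.97, 0.97 and 0.95 for the second.

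Of 67 tested genes in 5 lists of deacetylases, kinases and other partners of the members, 4 passed the test with GREM1, or 5.97%, a share near the 4.28% of all tested genes. With the replicate block the shares were 14.9% of these genes and 11.6% of all. Of 20 kinases known to phosphorylate class IIa deacetylases, or to activate those that do, 1 rose and 0 fell, with a median of 0.037. It was Prkaa2, a catalytic subunit of AMP-activated kinase, at 7.35, 7.45 and 6.93 on the control arrays and 8.36, 8.25 and 8.03 with GREM1. Its rise was 0.97 ± 0.22 (SE), with a limma adjusted p of 0.0382, and was lost without the first or the third control array, the second BMP4 array or any GREM1 array, and with no filter on dim genes. With the replicate block 5 of the 20 kinases rose and 2 fell, against 11.6% of all tested genes called in either direction. Those that fell were Camk1g (-0.51, limma adjusted p with the block of 0.0149) and Prkaa1 (-0.30, 0.0498). Among those that rose was Camk2a, a calcium/calmodulin kinase, at 7.38, 7.41 and 6.80 on the control arrays and 8.53, 8.56 and 7.82 with GREM1. Its difference of 1.10 had an adjusted p of 0.0548, and of 3.57e-04 with the block. Stk11, the kinase that activates AMPK and the SIK kinases, differed by 0.66 (adjusted p of 0.0558, and of 0.0271 with the block). Of 6 measured 14-3-3 genes 0 passed the test in either direction, with 1 at an unadjusted p under 0.05 and a median of -0.034.

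Of 11 measured corepressor genes 2 rose and 0 fell, with a median of 0.020. Bcl6, a repressor that binds class IIa deacetylases, read 8.69, 8.77 and 8.35 on the control arrays and 9.72, 9.87 and 9.89 with GREM1, and every GREM1 array was the higher. It rose by 1.22 ± 0.14 (SE), with a limma adjusted p of 0.00296. Tbl1xr1, a subunit of the NCoR complex that class IIa deacetylases recruit, rose by 0.51 (adjusted p of 0.0447), a call lost without any 1 array other than the second control, and with array weights, median centring, no filter or only the groups compared. Of the 7 histone deacetylases outside class IIa, 0 passed the test, with 1 at an unadjusted p under 0.05 and a median of 0.084. That 1 was Hdac11, which differed by 0.26 (limma unadjusted p of 0.0289, adjusted p of 0.187). Hdac1, a class I enzyme that binds MyoD in undifferentiated myoblasts, differed by -0.34 (adjusted p of 0.280), and Hdac3, the enzyme of the NCoR complex, by 0.16 (0.647).

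Of 23 coactivators and activating signals of MEF2, 1 rose with GREM1 and 0 fell, with a median of 0.10. Mamstr, the coactivator also called MASTR, read 7.72, 7.95 and 7.82 on the control arrays. It read 7.69, 7.84 and 7.50 with BMP4, and 8.51, 8.67 and 8.79 with GREM1. All GREM1 arrays were above all others. It rose by 0.83 ± 0.12 (SE), with a limma adjusted p of 0.00641. Ppargc1a, the coactivator of mitochondrial genes that MEF2 factors bind, stood lower on the BMP4 arrays. It read 6.46, 6.43 and 6.46 on the control arrays, 5.89, 5.87 and 5.87 with BMP4 and 6.44, 6.55 and 6.74 with GREM1. Its difference of BMP4 from control was -0.57 ± 0.087 (SE), with an adjusted p of 0.0504, and of 0.0398 with the block.

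Of 27 measured genes described as MEF2 targets in muscle, 2 rose with GREM1 and 0 fell, or 7.41% called against 4.28% of all tested genes. Of these 27, 19 lay above 0, against 48.6% of all genes, and the median was 0.22. With the replicate block 7 rose and 1 fell, or 29.6% against 11.6% of all. Ckm, muscle creatine kinase, read 6.80, 6.77 and 6.52 on the control arrays. It read 6.55, 6.78 and 5.93 with BMP4, and 8.09, 8.39 and 8.71 with GREM1. Every GREM1 array was well above the other 6, and the rise was 1.70 ± 0.22 (SE), with a limma adjusted p of 0.00433. Pygm, muscle glycogen phosphorylase, rose by 0.88 ± 0.10, with an adjusted p of 0.00321. The calls of Ckm, Pygm, Bcl6 and Mamstr held without any 1 array and were lost without all arrays of number 1 or of number 2. Myog, the myogenic factor myogenin, differed by 0.90 (adjusted p of 0.0947, and of 0.0167 with the block), and Srpk3, a muscle kinase, by 0.73 (0.101, and 0.00475 with the block). Other targets lay below the control mean, such as Klf2, a transcription factor, at -0.38 (0.104, and 0.0310 with the block) and Mb, myoglobin, at -0.10 (0.836). The mean of the 27 genes was lowest on the third array of each group, at 7.65 for control, 7.61 for BMP4 and 8.11 for GREM1, against 7.98 to 8.25 on the other 6 arrays.

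**Figure D4:**
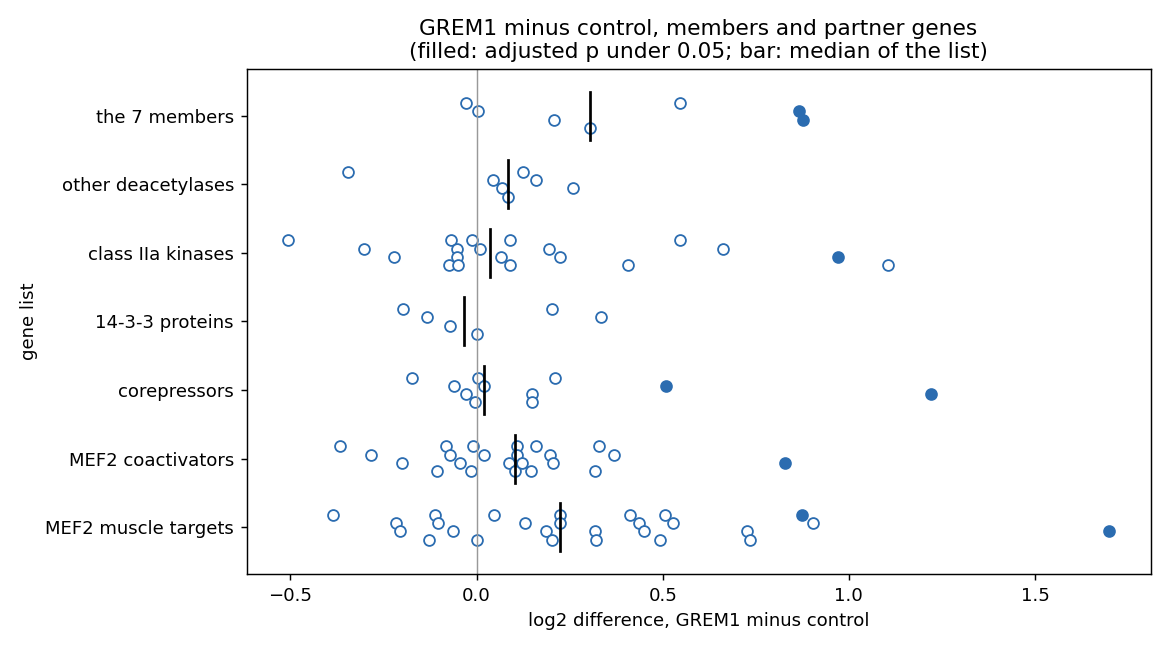
Log2 differences of GREM1 from control for the 7 members and for each list of partner genes, 1 point a gene, filled at an adjusted p under 0.05, with the list median as a bar. The filled points are Mef2a and Mef2d among the members, Prkaa2, Tbl1xr1, Bcl6 and Mamstr among the partners and Pygm and Ckm among the targets (0.88 and 1.70).

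Against control, BMP4 called 0 genes in each of these lists by limma, with 0 to 4 genes a list at an unadjusted p under 0.05. Against GREM1, 2 kinases were higher with BMP4, Camk1g (0.91) and Prkaa1 (0.43), and 2 were lower, Prkaa2 (-1.05) and Camk2a (-1.23). Bcl6 was lower with BMP4 by -1.30, Mamstr by -0.98, Ppargc1a by -0.70, Ckm by -1.98 and Pygm by -0.88, and the cofactor Vgll4 was higher by 0.36, each at a limma adjusted p under 0.05. Of these, Camk2a and Prkaa1 were lost without the second or the third BMP4 array or the first or the second GREM1 array, Prkaa2 without the first or the second GREM1 array, and Vgll4 without any 1 treated array. Camk2a and Prkaa1 were also lost with only the groups compared. Markers of other kinds of cells moved beside these results in places. The mural marker Acta2, an actin that myoblasts also make, rose by 1.25 with GREM1 (adjusted p of 0.0210). This call was lost without any 1 GREM1 array and with only the groups compared. Rgs5 and Cspg4 of the same list differed by -0.20 and -0.060 with GREM1. The median of its 5 tested genes was 0.013, with 3 of 5 above 0. The mean of the 7 mural and Schwann genes ran from 5.29 to 5.37 on control, 5.47 to 5.64 on BMP4 and 5.44 to 5.59 on GREM1 arrays. The leukocyte marker Cd14 fell by 0.92 with GREM1 (adjusted p of 0.0492), with list means of 4.33 to 4.50, 4.30 to 4.35 and 4.18 to 4.25. This call was lost without the first or the third control array, the first or the second BMP4 array or any 1 GREM1 array. It was also lost with no filter and with only the groups compared. The other tested leukocyte genes, Cd68, Itgam and Csf1r, differed by -0.16, 0.036 and 0.0022 with GREM1. The pericyte marker Cspg4 was higher with BMP4 than with GREM1 by 0.56 (adjusted p of 0.0132, lost without the first GREM1 array) and 0.50 above control (0.193). Fibroblast list means (8 genes) were 4.37 to 4.45 on control, 4.30 to 4.50 on BMP4 and 4.29 to 4.35 on GREM1 arrays. Every GREM1 array thus lay below every control array, but narrowly, with the highest GREM1 mean at 4.353 and the lowest control mean at 4.369. Only 4 of these 8 genes passed the filter. Col3a1 of this list differed by -0.52 with GREM1 (adjusted p of 0.189, and of 0.00775 with the block), without overlap of the groups. Thy1 and Pi16 of the same list differed by 0.13 and 0.035. The median of its 4 tested genes was 0.0054, with 2 of 4 above 0. The part of these markers in the results was not tested. Of the 9 myogenic markers 3 rose with GREM1 and 0 fell, against 4.28% of all tested genes called. Itga7 and Cdh15, surface proteins of myoblasts, rose by 1.00 and 0.91, with limma adjusted p of 0.00321 and 0.00347. Both calls were lost without all arrays of number 1 or of number 2. Ncam1 rose by 0.53 (adjusted p of 0.0485), a call kept in only 7 of 21 alternatives. Myod1 differed by 0.27 (0.419) and Myf5, a factor of undifferentiated myoblasts, by -0.85 (0.144, and 9.74e-04 with the block).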

How the data were processed

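Expression was measured on 9 arrays, 3 each of control, BMP4 and GREM1 myoblasts. Per the submitters' processing notes, the authors made the deposited log2 expression values with RMA and Affymetrix Expression Console, and these were taken unchanged, with the array model, chip definition and genome build not given in the sources used here. Of 24973 probe sets, 24015 had a symbol and 958 none, and the brightest probe set of each gene left 24011 genes. Of the probe sets, 47.6% hold an identical value on at least 2 arrays (Hdac5 has 7 distinct values, Hdac4 and Hdac7 have 8).

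Genes had to exceed, on 3 or more arrays, the 30th percentile of the named probe sets of that array, which left out 6869. Groups were compared with limma 3.58.1 in R 4.3.3 (lmFit and eBayes, no covariate, residual degrees of freedom 6, prior 3.47), with Benjamini-Hochberg adjustment, and the fit was tested on simulated data. The number of arrays limits the precision, with a median SE of 0.115.

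Replicate numbers come from the labels. Deviations from group means correlated over 0.1 for each same-numbered pair of control with BMP4 and with GREM1 arrays. For BMP4 with GREM1 1 pair lay at 0.0885. Of 18 pairs with different numbers, 3 were over 0.1, up to 0.232 for the first BMP4 with the second GREM1 array. The same-numbered pairs of number 2, at 0.170, 0.118 and 0.0885, did not exceed that value. Nor did the BMP4 with GREM1 pair of number 1, at 0.223. The numbers are therefore not shown to mark a pairing for all 3.

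Genes named were all members, Mef2b, up to 3 genes of each list with the smallest p in each comparison, and the 3 patterns most like each called member. Members, predicted genes, clones and pseudogenes were left out of the search for patterns. The members and lists were chosen with earlier results of these data known. Some genes of the lists are not analysed here. Alternatives were the block, other filters, scalings and fits, and leaving out arrays, and leaving out all arrays of a number was added after seeing the data. Promoters are from RefSeq, GRCm38.p6.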

Additional observations from a re-analysis of the deposited data

How the results depend on the processing

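Of 441 alternative values of the 7 genes, 397 kept their direction and side of the threshold, 33 changed sign and 11 fell short of the threshold. The calls of Mef2a and Mef2d held under every alternative other than leaving out arrays, and leaving out arrays gave 0 to 2 called members in GREM1 against control and 0 to 2 in BMP4 against GREM1. All changes of sign were in comparisons in which the member did not pass the test. Mef2a with BMP4 turned to 0.021 with arrays centred on their medians, Hdac4 with GREM1 to -1.14e-05 with array weights and Hdac4 in BMP4 against GREM1 to -0.0039 with quantile normalization. Leaving out arrays gave ranges through 0 with BMP4 for Mef2a (-0.12 to 0.051), Mef2c (-0.20 to 0.45), Hdac7 (-0.083 to 0.021) and Hdac9 (-0.11 to 0.28). With GREM1 it did so for Mef2c (-0.033 to 0.49), Hdac4 (-0.021 to 0.037) and Hdac7 (-0.081 to 0.016). In BMP4 against GREM1 it did so for Mef2c (-0.34 to 0.15), Hdac4 (-3.37e-04 to 0.054), Hdac5 (-0.060 to 0.0028) and Hdac7 (-0.055 to 0.048). The causes were not tested. Over all genes, BMP4 against control called 20, and 65 with the replicate block, 5 with only the groups compared, 68 with array weights, 31 with the 50th percentile filter and 0 to 17 without single arrays or numbers. GREM1 against control called 734, and 1985 with the block, 437 with only the groups compared and 4 to 901 without arrays, with 307 without the first control array. BMP4 against GREM1 called 1105, and 2192 with the block, 1768 with array weights and 167 to 1159 without arrays. The block changed no call of a member. With 3 arrays a group, the interval of Mef2c without the block spans over a log2 unit, and probe sets near the filter level, such as Mef2b, cannot show small changes.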
